A study of Mus musculus with 13 samples.

Results

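Cytochrome P450 enzymes are heme proteins of the endoplasmic reticulum or mitochondria that insert oxygen into drugs, solvents, fatty acids, steroids and sterols. The microsomal ones take their electrons from NADPH through 1 shared flavoprotein, cytochrome P450 oxidoreductase (Por), and the mitochondrial ones through ferredoxin. The liver holds most of the xenobiotic enzymes, Cyp2e1 among them, and adipose tissue holds a smaller set. The genes described here are 8 P450 genes listed by symbol (Cyp2e1, Cyp2f2, Cyp4b1, Cyp2d22, Cyp1b1, Cyp27a1, Cyp7b1 and Cyp4v3) and Por, 9 of the 22609 genes in each of the 2 deposited tables. They were chosen with fat results of these libraries already known, so their KO and WT values in fat are a description with no test, and tests were made on them in the tumours only.

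The fat libraries came from visceral fat of C57BL/6 mice after HFD feeding, 4 from hosts with a fat-specific knockout of PD-L1 by their label (KO) and 3 from wild-type (WT) hosts. The tumour libraries came from transplanted E0771, a mouse mammary tumour line, in hosts of the same strain, 3 in KO and 3 in WT hosts. PD-L1 is the surface ligand, encoded by Cd274, that restrains T cells through PD-1. The promoter or Cre that removed it from fat, the age and the sex of the hosts are not given in the sources used here, and the labels do not say that each replicate is its own animal, so errors and p-values measure the spread between libraries.

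The fat libraries held 29362788 to 41534662 recovered gene reads and the tumour libraries 22834259 to 34706555 gene reads. Cd274 had a fat value of 543.9 ± 17.6 in KO (SD, n = 4) and 590.2 ± 129 in WT (n = 3) and did not pass the test (adjusted p = 0.66, limma), so KO and WT are used throughout as the names on the libraries. The fat carried its adipocyte markers (Fabp4, Lep and Cidec led), at a summed value of 288696.8 to 448932.3 in KO and 932141.0 to 1131281.6 in WT, and 12 of 12 were lower in KO by limma. The 10 macrophage markers, led by Gpnmb, Lyz2 and Lgals3, summed to 390206.7 to 639798.2 in KO and 55112.5 to 198730.8 in WT, and 10 of 10 were higher in KO. In bulk tissue, fewer cells of a type and less RNA per cell cannot be told apart. The WT columns of the fat table are numbered 1, 3 and 4, and are called by these numbers. WT library 4 stood apart: Adam7, an epididymis gene, had a value of 1917.9 there and at most 2.016 in the other 6 fat libraries, and the 10 hepatocyte markers, led by Alb, summed to 8571.6 there and 373.1 to 3064.6 in the other 6. Prm2, a sperm protamine, had 0 to 1.079 in KO and 282.2, 91.96 and 25.78 in WT libraries 1, 3 and 4. The 10 epididymis and testis markers summed to 2.158 to 12.14 in KO and 228.9 to 2046.7 in WT. This difference thus ran along with the KO and WT labels, also without WT library 4. Its part in the fat values cannot be told apart from that of the labels and was not tested.

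The sequences before the transcription start are shown for the members whose KO and WT fat values did not overlap and whose start is in RefSeq (GRCm38.p6), as the 250 bases before the start, 5′ to 3′ on the gene's strand. Of the 9 members 7 matched an entry. Capitals mark matches on either strand to the following motifs, which did not overlap one another in these windows: the box with letters TATAAA, the box with letters CCAAT, the GC box with letters GGGCGG, the core bound by the aryl hydrocarbon receptor (AHR) with letters GCGTG, the nuclear receptor half-site with letters AGGTCA and the E-box with letters CACGTG. Cyp2e1 is on the plus strand (chr7:140763569-140763818), Cyp1b1 on the minus strand (chr17:79715062-79715311) and Por on the plus strand (chr5:135688895-135689144). The RefSeq and GENCODE starts differ: the RefSeq start of Por lies 19112 bases inside the gene as GENCODE M21 gives it and that of Cyp2e1 80 bases inside, while those of Cyp1b1 coincide.
Cyp2e1: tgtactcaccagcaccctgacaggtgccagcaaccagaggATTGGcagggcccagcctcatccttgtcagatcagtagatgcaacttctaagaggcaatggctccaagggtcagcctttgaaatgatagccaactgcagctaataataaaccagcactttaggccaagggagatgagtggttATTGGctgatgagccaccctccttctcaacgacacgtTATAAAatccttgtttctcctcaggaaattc
Cyp1b1: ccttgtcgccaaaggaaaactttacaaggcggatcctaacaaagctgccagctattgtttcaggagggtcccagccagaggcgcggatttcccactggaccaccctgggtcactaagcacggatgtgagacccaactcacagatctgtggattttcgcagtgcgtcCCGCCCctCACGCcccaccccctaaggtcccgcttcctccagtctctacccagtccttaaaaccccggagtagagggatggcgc
Por: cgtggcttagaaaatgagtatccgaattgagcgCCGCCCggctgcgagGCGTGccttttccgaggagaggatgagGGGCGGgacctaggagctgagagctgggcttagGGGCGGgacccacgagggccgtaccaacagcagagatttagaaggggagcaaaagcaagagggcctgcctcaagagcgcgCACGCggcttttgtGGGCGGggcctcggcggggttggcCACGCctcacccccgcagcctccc
The Cyp2e1 window was the one among the 7 members with TATAAA, beginning 31 bases before the start, and it held CCAAT on the minus strand 210 and 68 bases before it. Of 32851 RefSeq promoters of that length 12.4% held TATAAA and 33.8% CCAAT. Cyp1b1 held 1 GC box and 1 GCGTG, both on the minus strand, 84 and 76 bases before the start. Por held 4 GC boxes and 3 GCGTG matches. GGGCGG stood in 5 of the 7 member windows and in 32.7% of all promoters, and GCGTG in 3 of the 7 and in 28.2%. A match is a run of letters and says nothing about binding.

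Cyp2e1, which oxidises ethanol, acetone and small solvents, was the member that differed most between KO and WT fat. The gene lies on chromosome 7 (140763739 to 140774987, plus strand, GENCODE M21 on GRCm38). Its normalised values, read counts divided by a size factor per library, were 1881.0, 2073.5, 1255.7 and 2393.4 in KO replicates 1 to 4, against 16499.8, 35060.9 and 123277.8 in WT libraries 1, 3 and 4. All 4 KO libraries lay below all 3 WT libraries, and the lowest WT library was 6.89-fold above the highest KO library. The means were 1900.9 ± 479 in KO (SD, n = 4) and 58279.5 ± 57100 in WT (n = 3). On the log2(value + 1) scale the difference of KO minus WT was -4.49 (SE 0.58), and it was -3.70 without WT library 4.

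The WT libraries were far apart among themselves. The highest KO library was 1.91-fold above the lowest KO library for Cyp2e1, and the highest WT library 7.47-fold above the lowest WT library. Of 11394 genes with a value of at least 50 in each WT library, Cyp2e1 had the 31st widest WT range, against a median fold of 1.29. WT library 4, with the highest Cyp2e1, was also the one that carried Adam7 and the most hepatocyte RNA. Alb, the serum albumin gene of hepatocytes, had values of 229.6, 1172.7, 350.5 and 2193.9 in KO replicates 1 to 4 and 722.6, 579.1 and 6343.4 in WT libraries 1, 3 and 4. Cyp2e1 per unit of Alb was 8.19, 1.77, 3.58 and 1.09 in KO and 22.8, 60.5 and 19.4 in WT. WT libraries 1 and 3 had hepatocyte sums of 1065.9 and 690.7, within the KO range of 373.1 to 3064.6, and WT library 4 was above it. The part of hepatocyte, epididymis or other tissue RNA in the Cyp2e1 values was not tested.

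Cyp2e1 also stood lower in KO relative to adipocyte RNA. As a percent of Adipoq, the adiponectin gene of adipocytes, it was 6.35, 11.3, 3.96 and 8.73 in KO replicates 1 to 4 and 16.5, 30.0 and 97.2 in WT libraries 1, 3 and 4. As a percent of the summed 12 adipocyte markers it was 0.538 ± 0.193 in KO (n = 4) and 5.42 ± 4.83 in WT (n = 3), with all KO libraries below all WT libraries. It was likewise lower in KO as a percent of the summed adipose stromal, macrophage and hepatocyte markers. The macrophage sum was higher in every KO library than in any WT library, so a gene with equal values is also lower on that ratio. The stromal sum was 473699.1 to 640432.7 in KO and 241412.5 to 495910.8 in WT. A gene with equal values thus tends to be lower on the stromal ratio too. These ratios were chosen after the values had been seen.

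**Figure D1:**
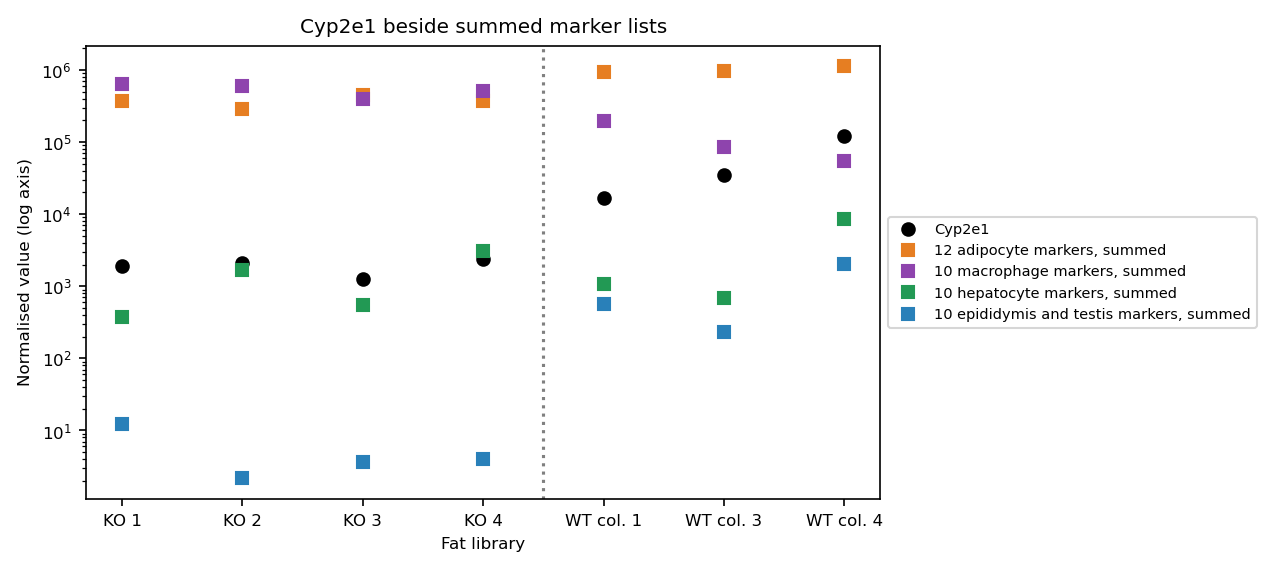
Normalised value of Cyp2e1 (black circles) and the summed value of 4 marker lists (squares) in each fat library, on a log axis, with KO replicates left of the dotted line and WT columns right of it. Cyp2e1 lies at 1255.7 to 2393.4 in KO and 16499.8 to 123277.8 in WT, and the epididymis and testis markers at 2.158 to 12.14 in KO and 228.9 to 2046.7 in WT.

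Summed over the 96 symbols made of Cyp, a number and a letter, without pseudogenes and without correction for length, the fat value was 23628.2 ± 1170 in KO (n = 4) and 78732.1 ± 60000 in WT (n = 3). Cyp2e1 supplied 7.99%, 8.27%, 5.66% and 10.1% of that sum in KO replicates 1 to 4 and 49.0%, 63.0% and 83.9% in WT libraries 1, 3 and 4. The remaining 95 symbols summed to 21727.3 ± 892 in KO and 20452.6 ± 3210 in WT. With Cyp2e1 removed, the 4 KO sums of these symbols lay between the lowest and the highest WT sum. That depends on the symbol rule, which leaves out the P450 proteins encoded by Cyp51, Tbxas1 and Ptgis. With these 3 added, a sum chosen after the values were seen, the part without Cyp2e1 was 29845.6 ± 2100 in KO and 24716.3 ± 2430 in WT, with the lowest KO library at 27469.8 above the highest WT library at 27198.5. Cyp2e1 then supplied 4.37% to 7.66% of the sum in KO and 42.5% to 81.9% in WT. Of the 3 added genes, Tbxas1 was the one wholly higher in KO, at 5347.6 ± 1060 against 1214.1 ± 617 in WT. Cyp51 overlapped at 1943.3 ± 140 in KO and 1877.2 ± 509 in WT, and Ptgis at 827.4 ± 150 in KO and 1172.4 ± 305 in WT.

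**Figure D2:**
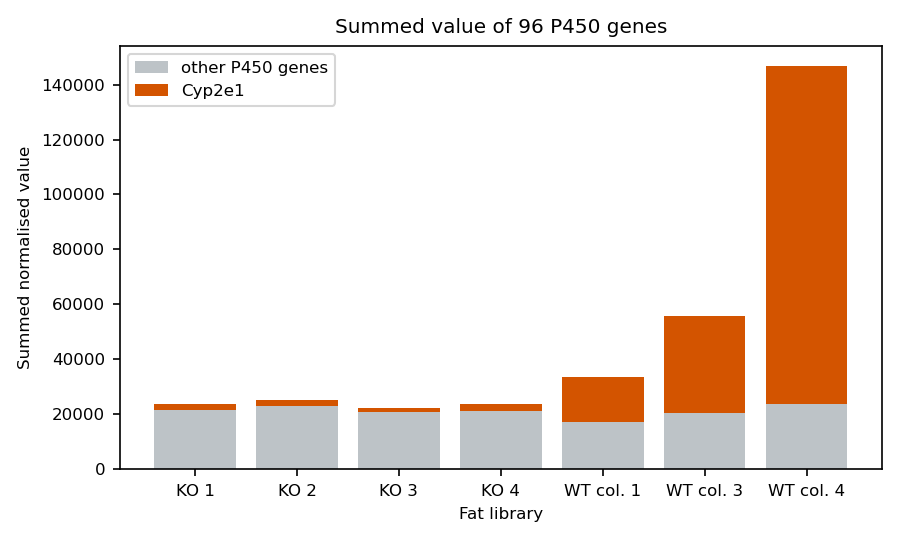
Summed normalised value of the 96 P450 genes picked by symbol in each fat library (bars from 0), split into Cyp2e1 and the other genes, with KO replicates left and WT columns right. The part without Cyp2e1 spans 20947.1 to 22993.7 in KO and 17198.4 to 23607.1 in WT.

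The other members linked to foreign compounds had smaller differences. Cyp2f2 (chromosome 7, 27119909 to 27133660, plus strand), the naphthalene oxidase known from club cells of the mouse lung, was near the bottom of the range, with values of 14.35, 11.87, 27.24 and 55.43 in KO replicates 1 to 4 and 31.83, 51.85 and 376.4 in WT libraries 1, 3 and 4. The groups overlapped, since KO replicate 4 was above WT libraries 1 and 3, and the WT mean of 153.3 ± 193 (the KO mean was 27.22 ± 20) rested on library 4. The log2 difference was -1.87 (SE 0.85), and -0.81 without WT library 4. The 6 lung markers summed to 15.45 to 21.16 in KO and to 12.04, 13.7 and 207.3 in WT libraries 1, 3 and 4, with Scgb3a2 and Sftpb at 0 in every fat library. The part of these other tissues in the Cyp2f2 values was not tested. An annotated antisense gene, Gm15883, overlaps its exons and is not in the table.

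Cyp2d22 (chromosome 15, 82370527 to 82380260, minus strand), a mouse relative of the human drug enzyme CYP2D6, had values of 990.2, 935.3, 1056.8 and 1120.6 in KO replicates 1 to 4, against 610.8, 1130.9 and 1882.8 in WT libraries 1, 3 and 4. The KO libraries sat close together inside the WT range, whose ends were 3.08-fold apart. The log2 difference was -0.09 (SE 0.32), and 0.30 without WT library 4, so its sign rested on that library. Cyp4b1 (chromosome 4, 115624725 to 115647723, minus strand), which hydroxylates fatty acids and activates furan toxins, had values of 2583.0, 2364.7, 2490.5 and 2191.9 in KO and 1995.8, 3600.0 and 2661.3 in WT. Its groups overlapped as well, at a log2 difference of -0.15 (SE 0.19), which was 0.06 without WT library 3.

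Cyp1b1 (chromosome 17, 79701537 to 79715061, minus strand) metabolises polycyclic hydrocarbons, oestradiol and retinoids, and is a known target gene of AHR. Its values were 6381.4, 8576.5, 6361.9 and 6053.6 in KO replicates 1 to 4, against 3277.6, 2799.8 and 3075.8 in WT libraries 1, 3 and 4. Every KO library was above every WT library, by at least 1.85-fold, and KO replicate 2 was the highest. The means were 6843.4 ± 1170 in KO (n = 4) and 3051.1 ± 240 in WT (n = 3), and the log2 difference was 1.15 (SE 0.14). As a percent of the 10 adipose stromal markers, led by Col3a1, Fn1 and Dcn, Cyp1b1 was 1.33, 1.34, 1.34 and 1.11 in KO and 0.661, 0.816 and 1.27 in WT, and these overlapped at WT library 4. Of the 10 stromal markers 2 rose and 1 fell by limma, against 16.8% and 17.4% of all tested fat genes. Nothing about stromal RNA is read from this count. Whether the Cyp1b1 values follow the stromal RNA was not tested. Ahr itself was 567.5 ± 80.6 in KO and 592.8 ± 95 in WT (log2 difference -0.06, SE 0.17, adjusted p = 0.807 by limma), while Ahrr, the AHR repressor and another known AHR target, was 64.59 ± 19.6 in KO and 22.49 ± 11.3 in WT and rose by 1.57 on the log2 scale (SE 0.43, adjusted p = 0.0242). Of other AHR targets, Tiparp fell to 1913.7 ± 150 in KO, against 2589.9 ± 222 in WT (-0.44, SE 0.11, adjusted p = 0.0177 by limma). Nqo1 overlapped at 187.5 ± 107 in KO and 218.6 ± 23 in WT (-0.36, SE 0.35, adjusted p = 0.463). Cyp1a1 was too low to test, at 0 to 11.04 in KO and 2.581 to 6.187 in WT. These AHR genes were picked after their values were seen, and the part of AHR activity in the Cyp1b1 values was not tested.

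**Figure D3:**
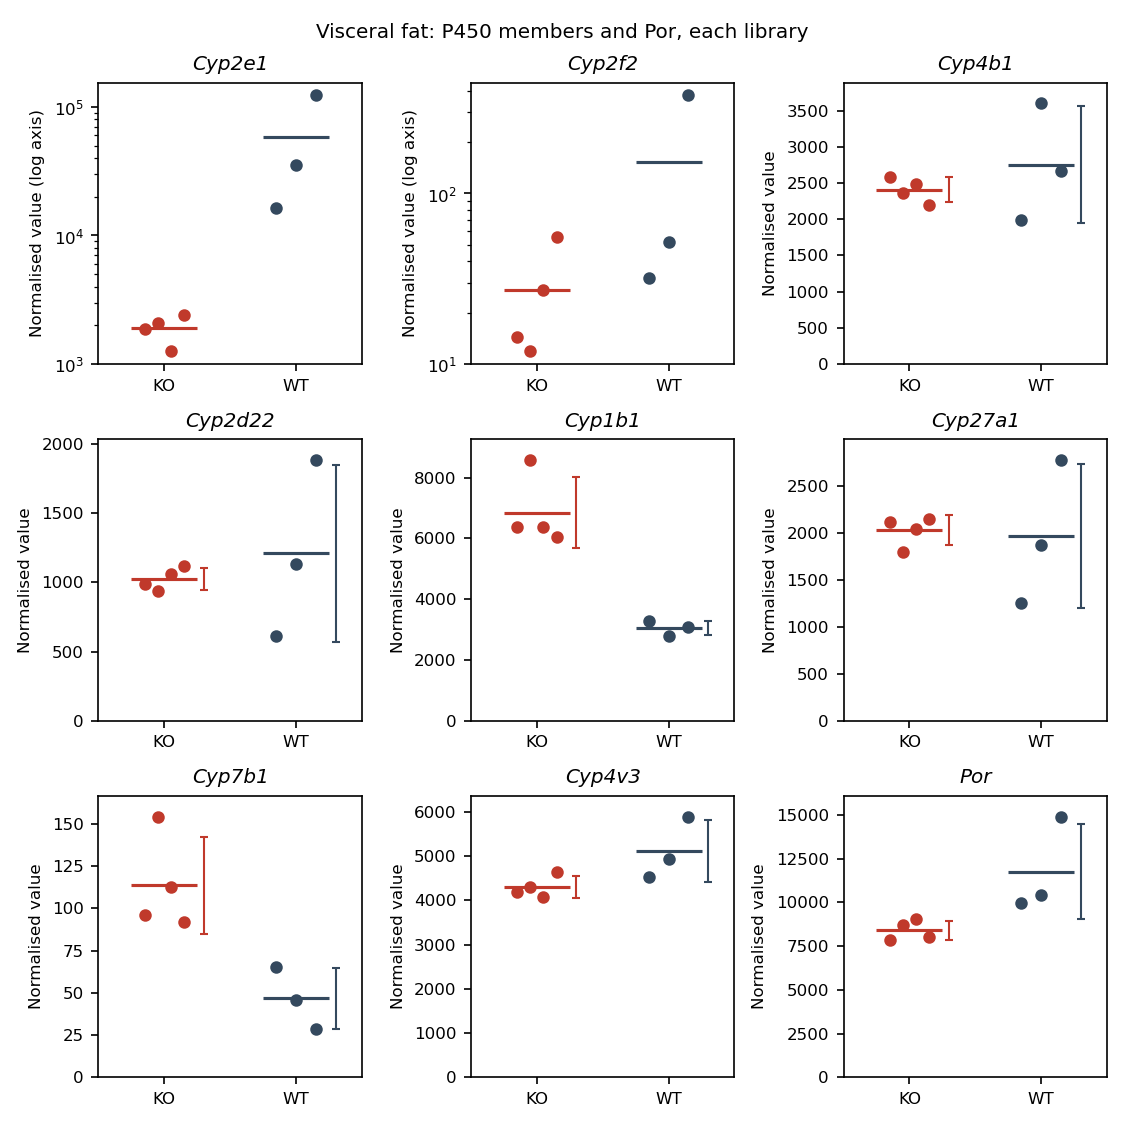
Normalised value of each member in the 4 KO (left) and 3 WT (right) fat libraries, with a horizontal line at the mean and, on the linear axes, a bar of ± 1 SD (Cyp2e1 and Cyp2f2 are on log axes without the bar). KO lies wholly below WT for Cyp2e1 and Por and wholly above it for Cyp1b1 and Cyp7b1, and the groups overlap for the other 5.

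The sterol hydroxylases gave values of both kinds. Cyp7b1 (chromosome 3, 18071950 to 18243338, minus strand), which 7-alpha-hydroxylates 25- and 27-hydroxycholesterol and DHEA, was low but separate, with values of 96.04, 154.3, 112.6 and 91.71 in KO replicates 1 to 4 and 65.38, 45.98 and 28.87 in WT libraries 1, 3 and 4. The lowest KO library was 1.4-fold above the highest WT library. The means were 113.6 ± 28.5 in KO (n = 4) and 46.74 ± 18.3 in WT (n = 3), at a log2 difference of 1.31 (SE 0.32), and 1.01 without WT library 4. Unlike Cyp1b1, it stayed without overlap as a percent of the stromal markers, at 0.0201, 0.0241, 0.0238 and 0.0169 in KO and 0.0132, 0.0134 and 0.012 in WT. As a percent of the macrophage markers Cyp7b1 was lower in KO, and so were the other 8 members. The macrophage sum itself was 390206.7 to 639798.2 in KO and 55112.5 to 198730.8 in WT, so a gene with equal values comes out lower in KO. The share of all genes lower on that ratio was not computed, and nothing is read from the count.

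Cyp27a1 (chromosome 1, 74713574 to 74737892, plus strand), the mitochondrial enzyme that makes 27-hydroxycholesterol, had values of 2116.1, 1794.1, 2038.3 and 2147.5 in KO and 1250.0, 1864.6 and 2772.6 in WT libraries 1, 3 and 4. All KO libraries but replicate 2 lay between WT libraries 3 and 4, and replicate 2 lay just under library 3. The log2 difference was 0.12 (SE 0.24), and 0.40 without WT library 4. Among 16 genes of oxysterol handling and the liver X receptors, all tested, 4 rose and 2 fell in the limma fit, at a median log2 difference of 0.09. Of all 14455 fat genes tested 16.8% were called higher and 17.4% lower, with 0.05 as the threshold of the adjusted p, with a median of -0.00. Soat1, which esterifies cholesterol, rose to 7772.8 ± 1660 in KO, against 1653.1 ± 1110 in WT (log2 difference 2.41, SE 0.38, adjusted p = 0.00272). Gpr183, the receptor for 7-alpha,25-dihydroxycholesterol, rose to 619.3 ± 82.4 in KO, against 189.1 ± 103 in WT (1.83, SE 0.32, adjusted p = 0.00368). Srebf1, whose product drives lipid synthesis genes, fell to 5238.1 ± 1160 in KO, against 11879.2 ± 1560 in WT (-1.20, SE 0.18, adjusted p = 0.00239), and Osbpl1a, an oxysterol-binding protein gene, fell by 0.78 (SE 0.16, adjusted p = 0.00823). Soat1 and Gpr183 moved with the macrophage markers, whose part in these values was not tested.

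Cyp4v3 (chromosome 8, 45304944 to 45333216, minus strand), the mouse counterpart of the human fatty acid hydroxylase CYP4V2, had values of 4184.7, 4314.2, 4086.6 and 4650.8 in KO replicates 1 to 4 and 4531.9, 4930.4 and 5894.8 in WT libraries 1, 3 and 4. The groups met at KO replicate 4 and WT library 1, and the log2 difference was -0.24 (SE 0.12). An annotated coding gene on the same strand, Gm45753, shares exon sequence with it and is not in the table, so its reads cannot be separated here.

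Por (chromosome 5, 135670033 to 135735326, plus strand), the electron donor of the microsomal P450s, had values of 7847.3, 8714.6, 9032.2 and 8000.5 in KO replicates 1 to 4 and 9956.7, 10431.2 and 14898.4 in WT libraries 1, 3 and 4. All KO libraries were below all WT libraries, with a gap of 1.1-fold between the nearest. The means were 8398.7 ± 567 in KO (n = 4) and 11762.1 ± 2730 in WT (n = 3), at a log2 difference of -0.46 (SE 0.16), and -0.28 without WT library 4. As a percent of the adipocyte markers Por stood at 2.33 ± 0.465 in KO and 1.15 ± 0.142 in WT. On that ratio 7 of the 9 members were higher in KO, all but Cyp2e1 and Cyp2f2. The marker sum itself was 288696.8 to 448932.3 in KO and 932141.0 to 1131281.6 in WT, so a gene with equal values comes out higher in KO. The share of all genes higher on that ratio was not computed, and nothing is read from the count.

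Among the 9 members, then, KO lay wholly below WT in 2 (Cyp2e1 and Por) and wholly above it in 2 (Cyp1b1 and Cyp7b1), and the groups overlapped in 5. Of the 14455 tested fat genes 22.1% lay wholly below and 21.6% wholly above, and since the members were chosen on this contrast nothing is read from their count. All 9 members passed the filter on low values.

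Divided by the length of their exons, the members had a different order in KO and in WT. In WT the mean values per kb were 27000 for Cyp2e1, 2930 for Por, 1340 for Cyp4v3, 1220 for Cyp4b1, 903 for Cyp27a1, 522 for Cyp1b1, 309 for Cyp2d22, 75.7 for Cyp2f2 and 21.6 for Cyp7b1. In KO they were 2090 for Por, 1170 for Cyp1b1, 1130 for Cyp4v3, 1070 for Cyp4b1, 931 for Cyp27a1, 881 for Cyp2e1, 262 for Cyp2d22, 52.5 for Cyp7b1 and 13.4 for Cyp2f2. Cyp2e1 thus went with the middle members in KO, at 582 to 1110 per kb, where each neighbour in the order from Cyp1b1 to Cyp2e1 overlapped the next, and it stood alone at the top in WT, at 7650 to 57100 per kb. Other WT neighbours that overlapped were Cyp4v3 with Cyp4b1, Cyp4b1 with Cyp27a1, Cyp1b1 with Cyp2d22, Cyp2d22 with Cyp2f2 and Cyp2f2 with Cyp7b1.

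The genes whose pattern over the 7 fat libraries was most like that of Cyp2e1, by Pearson's r of log2(value + 1) among 11931 genes with a mean of 50 or more, were Nlrx1 (r = 0.993), Abcb10 (0.992), Adck3 (0.991), Eml2 (0.99) and Il17rc (0.989). In all 5 the KO libraries lay below the WT libraries and the WT libraries ran in the same order as for Cyp2e1, while the KO libraries did not. The size was not shared: their highest WT library was 1.31-fold to 1.52-fold above their lowest, against 7.47-fold for Cyp2e1. After the group means were removed, Angpt4 (0.998), Rrnad1 (0.997), Fuk (0.991), Rbm4 (0.988) and Pon1 (0.988) came closest. Angpt4, an angiopoietin, had values of 48.57, 55.02, 32.69 and 59.46 in KO replicates 1 to 4 and 19.79, 47.93 and 222.7 in WT libraries 1, 3 and 4. Pon1, a paraoxonase that the liver secretes, had 13.25, 20.5, 7.264 and 18.14 in KO and 22.37, 54.78 and 233.0 in WT. Both were highest in WT library 4, as Cyp2e1 was. Among the members, r after removal of group means was 0.966 for Cyp4v3, 0.917 for Cyp2d22, 0.91 for Cyp27a1, 0.81 for Cyp2f2, 0.781 for Por, 0.268 for Cyp4b1, -0.0478 for Cyp1b1 and -0.789 for Cyp7b1. With 7 points that share libraries and scaling, these values describe the libraries and carry no p.

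Of the 88 other P450 symbols, 14 were at 0 in every fat library, 62 in all were not tested, and 26 were tested. Of the 26, 2 rose (7.69%) and 5 fell (19.2%) by limma, at a median log2 difference of -0.49. Of all 14455 tested fat genes 16.8% were called higher and 17.4% lower, so the share that fell was near that of all genes. Cyp4f39, a long-chain fatty acid omega-hydroxylase of the skin, rose to 118.8 ± 18 in KO, against 38.5 ± 9.04 in WT (log2 difference 1.61, SE 0.25, adjusted p = 0.0024). Cyp4f13 was at 693.8 ± 58.4 in KO and 505.4 ± 99.6 in WT (0.47, SE 0.16, adjusted p = 0.0475), a call that ended, with adjusted p up to 0.133, without any 1 library other than WT library 4, without the filter on low values and under a replicate block. The Cyp2j family includes arachidonic acid epoxygenases. Cyp2j9 fell to 257 ± 62.7 in KO, against 537.4 ± 72.9 in WT (-1.09, SE 0.23, adjusted p = 0.00758), and Cyp2j6 to 765.3 ± 88.4 in KO, against 1224.8 ± 33 in WT (-0.68, SE 0.12, adjusted p = 0.00444). Cyp2ab1 fell to 63.75 ± 14.1 in KO, against 126.2 ± 28.7 in WT (-0.97, SE 0.26, adjusted p = 0.0196), and lost its call without KO replicate 2, without WT library 3 and under the block (adjusted p up to 0.108). The other 2 that fell, Cyp17a1 and Cyp2b10, had mean values below 50.

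The partners that supply electrons and heme moved in both directions. Of 9 tested electron supply genes 1 rose (11.1%) and 4 fell (44.4%), at a median of -0.11, against 16.8% and 17.4% of all tested fat genes. Cyb5b, the outer mitochondrial membrane cytochrome b5, fell to 14971.3 ± 1300 in KO, against 26723.2 ± 3000 in WT (-0.83, SE 0.15, adjusted p = 0.00383 by limma). The other listed cytochrome b5 gene, Cyb5a, had no fat values under that symbol, so these counts do not cover it. Fdx1, the ferredoxin of mitochondrial P450s such as Cyp27a1, was at 233 ± 36.6 in KO and 487.6 ± 204 in WT (-0.99, SE 0.28, adjusted p = 0.0259), and its reductase Fdxr at 548.8 ± 47.8 in KO and 399.1 ± 28.7 in WT (0.46, SE 0.13, adjusted p = 0.0254). The Fdx1 call ended without KO replicate 2, KO replicate 4, WT library 3 or WT library 4 and under the block (adjusted p up to 0.101), and the Fdxr call without KO replicate 2, KO replicate 3 or WT library 3 and under the block (up to 0.119).

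Of the 13 heme genes 5 rose (38.5%) and 4 fell (30.8%), at a median of -0.18, against 16.8% and 17.4% of all tested fat genes. Alad, an early enzyme of heme synthesis, fell to 671 ± 125 in KO, against 1607.3 ± 489 in WT (-1.23, SE 0.21, adjusted p = 0.00379, limma). Alas2, the erythroid form of the first enzyme, was at 448.8 ± 171 in KO and 906.9 ± 226 in WT (-1.05, SE 0.29, adjusted p = 0.0241), and lost its call in the same settings as Fdx1. Hmox1, which degrades heme, rose to 11984.3 ± 3900 in KO, against 3446.9 ± 1770 in WT (1.87, SE 0.37, adjusted p = 0.00637). Blvra, which reduces the biliverdin that Hmox1 yields, rose to 3147.6 ± 709 in KO, against 1683.6 ± 312 in WT (0.89, SE 0.20, adjusted p = 0.00953).

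Among the conjugating enzymes that act after the P450s, more genes fell than rose. Of 20 tested glutathione transferases 0 rose and 12 fell by limma (60.0%), at a median log2 difference of -1.02. Over all tested fat genes the shares were 16.8% higher and 17.4% lower. Gsta3 fell to 593.1 ± 208 in KO, against 3871.2 ± 2510 in WT (-2.57, SE 0.43, adjusted p = 0.00325). Gstm6 fell to 32.17 ± 3.08 in KO, against 200.1 ± 75.9 in WT (-2.54, SE 0.28, adjusted p = 0.000982). Near-identical family members share reads, so the single Gsta and Gstm values are uncertain. Of 13 glucuronosyl- and sulfotransferase genes 1 rose (7.69%) and 5 fell (38.5%), at a median of -0.78. Papss2, which makes the sulfate donor, fell to 1743.8 ± 223 in KO, against 3716.2 ± 128 in WT (-1.10, SE 0.12, adjusted p = 0.00101). Ugt1a6b fell to 129.8 ± 34.3 in KO, against 611 ± 28 in WT (-2.26, SE 0.22, adjusted p = 0.000909), while Ugt1a7c rose to 1094 ± 79.2 in KO, against 693.5 ± 121 in WT (0.67, SE 0.14, adjusted p = 0.00813). The Ugt1a genes have exons in common, so their split is uncertain as well.

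Of 24 tested alcohol, aldehyde and flavin oxidase genes 3 rose and 6 fell, at a median of -0.53. These enzymes act on substrates that overlap those of Cyp2e1. Among all tested fat genes 16.8% were called higher and 17.4% lower. The share of oxidase genes that rose was thus below that of all genes, and the share that fell was above it. Neither difference in share was tested. Aldh1a7 fell to 3090 ± 542 in KO, against 8409.4 ± 1120 in WT (-1.45, SE 0.17, adjusted p = 0.00115, limma). Aox1, aldehyde oxidase, fell to 2093.6 ± 355 in KO, against 5731 ± 2100 in WT (-1.41, SE 0.24, adjusted p = 0.00321). Aldh1b1, a mitochondrial aldehyde dehydrogenase, rose to 185.9 ± 50.3 in KO, against 76.98 ± 20.9 in WT (1.25, SE 0.28, adjusted p = 0.0102), and Aldh3b1 to 1785.1 ± 320 in KO, against 862.7 ± 200 in WT (1.05, SE 0.19, adjusted p = 0.00475).

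Steroid enzymes, nuclear receptors and eicosanoid enzymes were also followed, as users or regulators of P450 products. Of 13 tested steroid enzyme genes 2 rose (15.4%) and 5 fell (38.5%), against 16.8% and 17.4% of all tested fat genes. Hsd11b1, which regenerates active glucocorticoid in fat, fell to 1046.2 ± 312 in KO, against 3320.9 ± 971 in WT (-1.68, SE 0.27, adjusted p = 0.0029, limma), and Akr1c14, a 3-alpha-hydroxysteroid dehydrogenase, fell by 1.42 (SE 0.29, adjusted p = 0.00679). Hsd17b11 rose to 3801.6 ± 631 in KO, against 2218.3 ± 188 in WT (0.77, SE 0.15, adjusted p = 0.00551). Srd5a3 was 0.53 higher on the log2 scale (adjusted p = 0.038), a call lost without KO replicate 1, 2 or 4, WT library 3 or 4 and under the block (up to 0.113).

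Of 21 tested nuclear receptor and AHR pathway genes 3 rose (14.3%) and 6 fell (28.6%), at a median of -0.25. The shares over all tested fat genes were 16.8% and 17.4%. Ppara, the fatty acid receptor that induces Cyp4a genes in liver, fell to 169.8 ± 40.2 in KO, against 404.9 ± 116 in WT (-1.24, SE 0.26, adjusted p = 0.00803, limma). Rxrg, a partner of nuclear receptors, fell to 212 ± 42.5 in KO, against 496.2 ± 118 in WT (-1.22, SE 0.22, adjusted p = 0.00417). Nfe2l2, the oxidative stress factor NRF2, rose to 7546.6 ± 567 in KO, against 4507.2 ± 1340 in WT (0.78, SE 0.18, adjusted p = 0.0129, and 0.061 without WT library 3). Nr1h2, a liver X receptor, was 0.29 higher (adjusted p = 0.045), and 8 of 14 alternatives ended that call (up to 0.194).

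Of 17 tested eicosanoid enzyme genes 4 rose (23.5%) and 3 fell (17.6%), against 16.8% and 17.4% of all tested fat genes, so the share that fell was near that of all genes. Tbxas1, thromboxane synthase and itself a P450 protein under another symbol, rose to 5347.6 ± 1060 in KO, against 1214.1 ± 617 in WT (2.25, SE 0.33, adjusted p = 0.00212, limma). Hpgds, the haematopoietic prostaglandin D synthase, rose to 7356.1 ± 848 in KO, against 778.6 ± 768 in WT (3.68, SE 0.51, adjusted p = 0.00179). Ptges, prostaglandin E synthase, fell to 1052.4 ± 119 in KO, against 2068.8 ± 144 in WT (-0.98, SE 0.12, adjusted p = 0.00133), and Ltc4s, leukotriene C4 synthase, to 1432.6 ± 139 in KO, against 2722.6 ± 587 in WT (-0.91, SE 0.16, adjusted p = 0.0042). Over the 9 lists, each gene once, 143 of 172 symbols were tested, and 22 rose (15.4%) and 47 fell (32.9%), at a median of -0.43. The share that rose was thus near the 16.8% of all tested fat genes, and the share that fell was above their 17.4%. Without WT library 4, 17 rose and 40 fell of 140 tested genes in these lists, 11 of 20 glutathione transferases among the falls. In that fit 3 of 22 tested other P450 genes rose and 3 fell. Over all 14300 fat genes tested in it, 2021 were called higher and 2022 lower. The adipocyte (12 of 12) and endothelial (8 of 8) markers fell and the macrophage markers (10 of 10) rose in the same libraries, and their part in these counts was not tested.

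**Figure D4:**
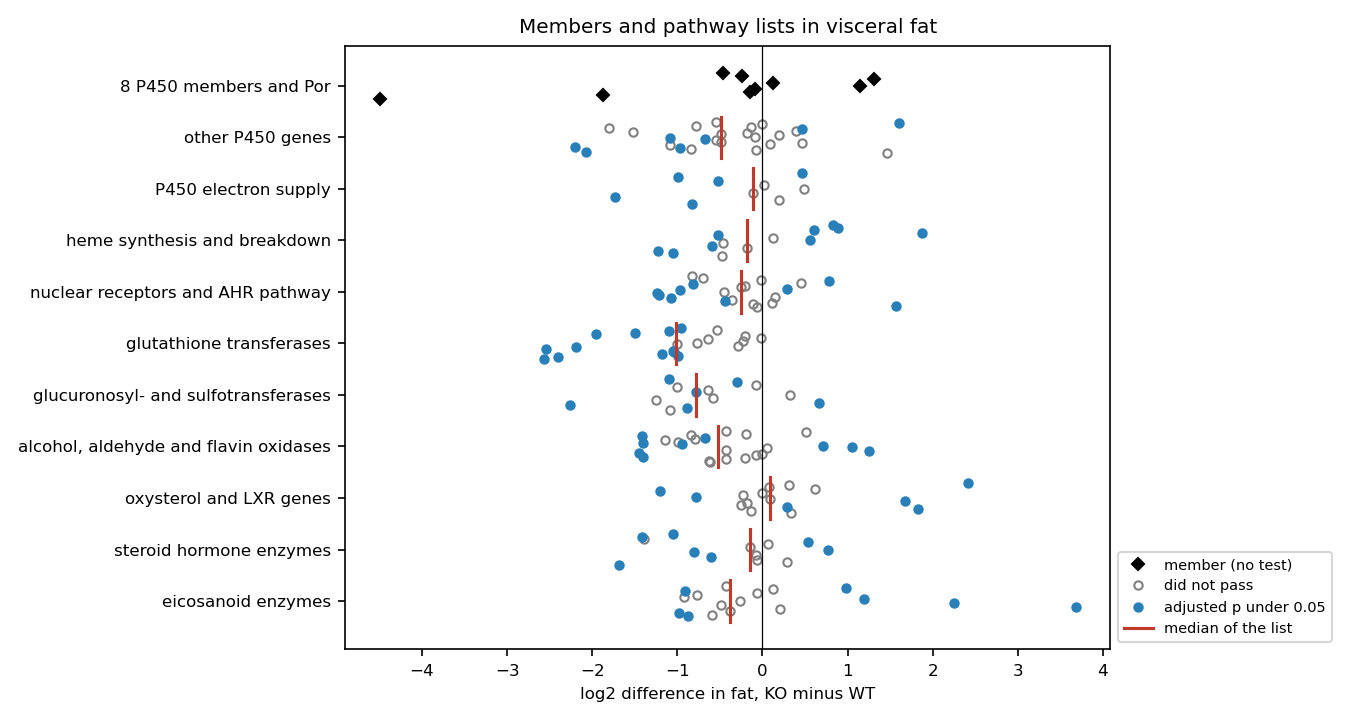
Log2 difference of KO minus WT in fat for each member (diamonds, no test) and each tested gene of the other P450s and the 9 lists, filled where the adjusted p from limma was under 0.05, with a red line at the list median. The glutathione transferases have the lowest median of these lists, -1.02, and Cyp2e1 lies farthest left of all genes plotted, at -4.49.

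In the tumours the members were at other levels than in fat. Cyp2e1 had 0, 1 and 0 reads in tumours of KO hosts and 0, 2 and 7 in tumours of WT hosts. Cyp2f2 had 0, 1 and 0 reads in KO hosts and 10, 2 and 0 in WT hosts, Cyp4b1 0, 6 and 3 in KO and 3, 0 and 7 in WT, and Cyp1b1 0, 2 and 2 in KO and 0, 1 and 6 in WT. Cyp2d22 had 14, 6 and 6 reads in KO hosts and 13, 4 and 8 in WT hosts. These 5 members were too low for the edgeR test, and no difference was detectable at this depth. The hepatocyte markers were also near 0 in the tumours, with sums between 0 and 6.338 normalised reads under KO and between 3.942 and 8.41 under WT. The mammary and tumour epithelial markers summed to between 8908.3 and 9731.8 under KO and between 8898.1 and 10605.2 under WT.

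The 4 other members were measured and did not pass the test between hosts. Por had normalised reads of 8140.1, 7091.8 and 7356.3 in KO hosts and 7720.6, 7275.0 and 7529.1 in WT hosts, a log2 difference of 0.01 (SE 0.11, adjusted p = 0.992 by edgeR, exact permutation p = 1.0). Cyp4v3 had 1336.7, 1474.1 and 1493.6 in KO hosts and 1295.0, 1341.4 and 1070.9 in WT hosts (0.22, SE 0.13, adjusted p = 0.796 by edgeR, exact permutation p = 0.2). Its KO range met the WT range at 1 library, and those of Por overlapped widely. Cyp27a1 had 225, 277.6 and 282.7 in KO hosts and 377.5, 404.8 and 264.5 in WT hosts (-0.41, SE 0.20, adjusted p = 0.755 by edgeR, exact permutation p = 0.3), with WT replicate 3 inside the KO range. Cyp7b1 had 9.236, 19.01 and 25.91 in KO hosts and 20.7, 35.32 and 14.02 in WT hosts (-0.38, SE 0.56, adjusted p = 0.916 by edgeR, exact permutation p = 0.5). With 3 tumours against 3, the exact two-sided permutation test over 20 relabellings cannot go below 0.1. Per kb of exon the mean over the 6 tumours was 1870 for Por, 351 for Cyp4v3, 141 for Cyp27a1 and 9.56 for Cyp7b1, and at most 2.14 for the others.

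**Figure D5:**
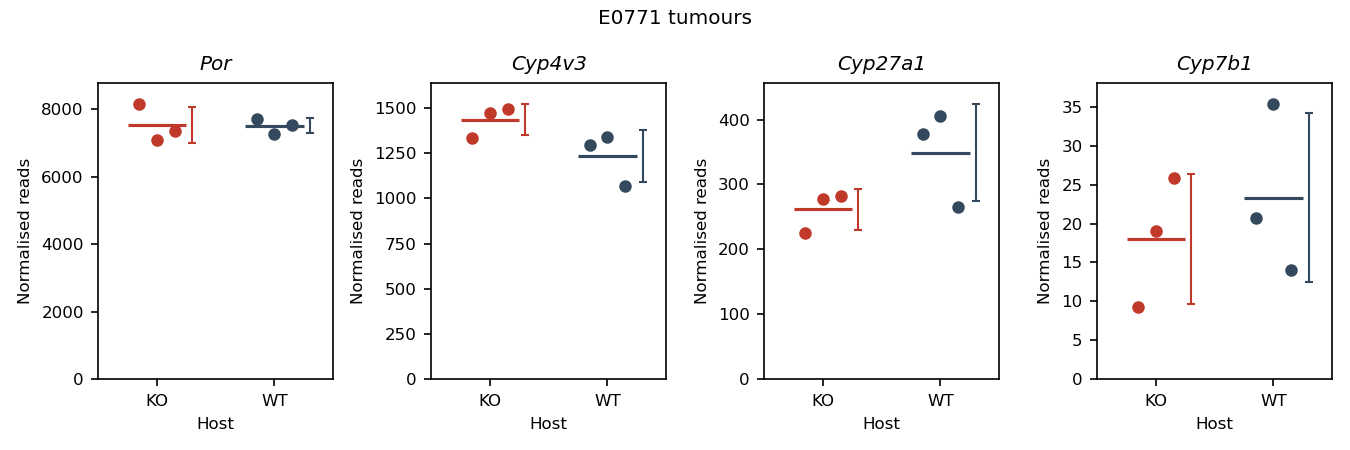
Normalised reads of the 4 members that could be tested in tumours of KO (left) and WT (right) hosts, each point a tumour, with a line at the mean and a bar of ± 1 SD. The groups overlap in each panel, as for Por at 7529.4 ± 545 in KO hosts and 7508.2 ± 224 in WT hosts.

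Over all 13109 genes tested in the tumours edgeR called 0 higher (0.0%) and 0 lower (0.0%), with 497 (3.79%) and 408 (3.11%) at an unadjusted p under 0.05, 0 of them members. DESeq2 called 47 (0.277%) and 12 (0.0708%) of the 16949 genes to which it gave a p, again 0 of them members. It gave an adjusted p to 4 of the 9 members, so the rest could not be called. None of the 4 tested members had groups that did not overlap, against 5.29% of all tested tumour genes higher and 5.2% lower. Of the other P450 symbols 52 had no read in any tumour, 16 were tested and 0 were called. The 3 of smallest p were Cyp2u1, at 14.58 ± 7 in KO hosts and 32.35 ± 8.39 in WT hosts (-1.17, SE 0.51, adjusted p = 0.713 by edgeR), Cyp11a1, the cholesterol side-chain cleavage enzyme, at 94.6 ± 36.1 in KO hosts and 55.08 ± 8.85 in WT hosts (0.79, SE 0.35, adjusted p = 0.72), and Cyp4f18, a leukotriene B4 hydroxylase, at 724.2 ± 19.5 in KO hosts and 606.8 ± 62.2 in WT hosts (0.26, SE 0.14, adjusted p = 0.761).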

How the data were processed

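mRNA libraries were made from Trizol RNA with the TruSeq stranded mRNA kit, per the labels' protocols. The submitters' processing notes name CASAVA, TopHat, DESeq2 and mm10 without versions or roles. The counter, annotation and strand setting are not given in the sources used here. The tumour table holds raw read counts per symbol as deposited by the authors, with 5 summary lines that name no gene (66.7% to 72.2% of all entries) left out. The fat table holds the authors' deposited signal, gene read counts scaled by a size factor for each library: 117220 of 117220 values above 0 were whole multiples of 1 read within 0.001 (100%), and edgeR on those reads called 2356 genes higher and 2542 lower of 14464.

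The members and gene lists were chosen with earlier results of these data known. WT fat columns 1, 3 and 4 do not match the replicate numbers 1 to 3 of the titles, so they were assigned to the group only. Fat was fitted with limma 3.58.1 with a mean-variance trend on log2(value + 1). Genes needed 3 libraries with values of at least 10, and differences of low genes are understated. Tumour counts were fitted with edgeR 4.0.16 (TMM, filterByExpr, quasi-likelihood) in R 4.3.3, and with DESeq2 1.42.0 as an alternative. The p-values are two-sided and adjusted by Benjamini and Hochberg over all genes tested, with a threshold of 0.05. Both fits were tested on simulated counts.

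The text names the 9 members, the 5 genes most like Cyp2e1 by each measure, up to 5 called rises and 5 called falls among other P450 symbols (Cyp, a number and a letter, without 5 pseudogenes), up to 2 of each per pathway list, all with a mean of 50 or more, the 3 other P450 genes of smallest p in tumours and leading genes of the marker lists, without predicted gene models. Gene positions and exon lengths are from GENCODE M21 (GRCm38) and promoters from RefSeq (GRCm38.p6). Alternatives were other pseudocounts, filters, normalisations and tests, each library left out, and a replicate block.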

Additional observations from a re-analysis of the deposited data

Results flagged for a closer look

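Among 78 group checks for a library far from the others, 2 were past the 95% critical value of Dixon's test for their number of samples, and chance flags about 1 group in 20. For Cyp1b1 in KO fat, the gap from the highest library, replicate 2 at 8576.5, to the next was 0.849 of the group's range. For Prm2 in KO fat, the gap from the lowest library, replicate 1 at 0, to the next was 0.883 of the range, where the other KO libraries held values worth 1 read each. Star, which moves cholesterol into mitochondria for the P450 Cyp11a1, went in opposite directions in the 2 tissues in every library. Its log2 difference of KO minus WT was -0.63 in tumours (SE 0.44, adjusted p = 0.816 by edgeR), with normalised reads of 18.47, 26.62 and 19.15 in KO hosts and 27.59, 43.92 and 28.03 in WT hosts. In fat it was 0.62 (SE 0.24, adjusted p = 0.0768 by limma), with values of 327.8, 208.2, 185.2 and 173.3 in KO and 142.8, 151.6 and 128.9 in WT. The difference between the tissues was not tested.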

How the results depend on the processing

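Over 14 alternatives the fat log2 difference (KO minus WT) stayed between -5.15 and -3.70 for Cyp2e1, 1.04 and 1.21 for Cyp1b1, 1.01 and 1.58 for Cyp7b1 and -0.57 and -0.28 for Por, while Cyp4b1 (-0.37 to 0.06), Cyp2d22 (-0.51 to 0.30) and Cyp27a1 (-0.17 to 0.40) changed sign in 1 alternative each. The replicate numbers did not pair the libraries, since same-numbered libraries correlated at -0.0116, 0.0607 and 0.247 in fat and -0.218, 0.0118 and -0.22 in tumours, and not every library correlated best with its own number. With a replicate block the fat calls were 1430 higher and 1475 lower, the other P450 genes 1 and 2, electron supply 0 and 2, heme 1 lower, nuclear receptors 1 higher, glucuronosyl- and sulfotransferases 3 lower, and steroid enzymes 1 higher and 3 lower. Other P450 genes lower were 8 with no filter and 3 with a filter of 50. Leaving out each library gave 1575 to 2691 fat genes higher and 1490 to 2567 lower, both lowest without WT library 3, other P450 genes 1 to 3 higher and 2 to 6 lower, and the 9 lists 14 to 23 higher. By list it gave electron supply 0 to 2 higher and 2 to 4 lower, heme 3 to 5 higher and 2 to 6 lower, nuclear receptors 0 to 3 higher, glucuronosyl- and sulfotransferases 3 to 4 lower, oxidases 5 to 10 lower, steroid enzymes 1 to 2 higher and eicosanoid enzymes 3 to 5 lower. Tumour calls were 47 higher and 12 lower with DESeq2, 21 and 1 with no filter, and 0 to 10 and 0 to 11 with 1 library left out (9 higher without KO replicate 3, 10 and 11 without WT replicate 3). The cause of these moves was not tested. The adjusted p of the 4 tested members in tumours ranged over the alternatives from 0.247 to 1.0. Depth limits Cyp2e1, Cyp2f2, Cyp4b1, Cyp1b1 and Cyp2d22 in the tumours, and 3 WT libraries as far apart as those of Cyp2e1 limit its size in fat.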
